A study of Rattus norvegicus with 47 samples.

Results

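The comparison was between arrays of rat contralateral hippocampus, the hippocampus on the side opposite a brain injury, taken 4 h after that injury. The extraction numbers in the sample titles fall into blocks, and arrays 29 to 32 (n = 4) were set against arrays 25 to 28 (n = 4), which makes 8 of the 47 arrays of the series. Every probe set other than the Affymetrix controls entered, 8740 of 8799, and 6812 of them passed the filter on low signals. The study hybridised Trizol-extracted total RNA from ipsilateral and contralateral cortex at 4 h and 24 h and hippocampus at 4 h. The labels give all 8 arrays the same tissue, the same time after injury and the same treatment entry (wait), and they name no difference between the blocks, so a difference reported here is between numbered blocks and is tied to no treatment. The labels give neither the kind of injury nor the strain, sex or age of the rats. Nothing states that the arrays of a block came from separate animals. The limma p-values therefore weigh a difference only against the spread within the blocks of all 47 arrays, and that spread may be technical. Array 23, also labelled contralateral hippocampus at 4 h, carries a number from outside the run. It belonged to neither block, and its signals are given only as single values.

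Several gene programmes are known to react within hours of brain injury, on the injured side and sometimes beyond it. C/EBP delta, encoded by Cebpd, is a basic leucine zipper transcription factor of the acute-phase response that is switched on by cytokines and glucocorticoids. Metallothioneins are small cysteine-rich proteins that bind zinc and copper, and glucocorticoids, metals and oxidative stress raise their transcripts. Immediate early genes such as Egr1 and Arc follow neuronal activity, and in the hippocampus their transcripts rise and fall within minutes to hours.

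The arrays carried transcripts of several brain cell types. Transcripts of neurons (Snap25, Syp, Neurod1, Neurod2, Itpka), astrocytes (Slc1a3, Aqp4) and oligodendrocytes (Mbp, Mog) were above the low-signal floor on all 8 arrays, while Gfap and Rasgrf2 were not named on the array. Adora2a and Prkcd, taken as markers of neighbouring regions, Lck of leukocytes and Hbb of blood were also above the floor on all 8 arrays. Drd2 of neighbouring regions was above it on 3 arrays, S100a9 of leukocytes on 2 and S100a8 on 0. Being above the floor on all 8 arrays therefore does not by itself set hippocampus apart. Of the microglial markers, C1qb was above the floor on all 8 arrays, Itgam on 4 and Csf1r on 1. Correlations of log2 signal across probe sets were 0.96 to 0.974 within arrays 25 to 28, 0.948 to 0.977 within arrays 29 to 32 and 0.954 to 0.972 between the blocks, so the blocks did not separate by this measure. Of 6 measures of array quality, the mean log2 signal of the spiked controls was 11.9 ± 0.07 (SD, n = 4) on arrays 25 to 28 and 12.1 ± 0.12 (n = 4) on arrays 29 to 32. That split gave an exact two-sided permutation p of 0.0286, the smallest 4 against 4 allows, and 0.172 after adjustment over the 6 measures.

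Signals of markers of neighbouring tissue differed from array to array. Ttr, which encodes the thyroid hormone carrier transthyretin and marks choroid plexus epithelium (rc_AA945169_at), had signals of 66058, 81393, 2854 and 36133 on arrays 25 to 28 and of 81858, 1420, 1265 and 62703 on arrays 29 to 32. Arrays 27, 30 and 31 were low and the other 5 high, so the blocks overlapped. Prkcd, a protein kinase C abundant in thalamus (M18330_g_at), lay between 1845 and 2299 on arrays 25 to 28 and had signals of 3930, 2027, 1837 and 6923 on arrays 29 to 32. Array 32 also had the highest Calb2, the interneuron calcium-binding protein calretinin (7990 against 3580 to 5112 on the other 7 arrays), and the lowest Nefl, the light neurofilament chain (12999). In bulk tissue, fewer cells of a type and less RNA per cell cannot be told apart.

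**Figure D1:**
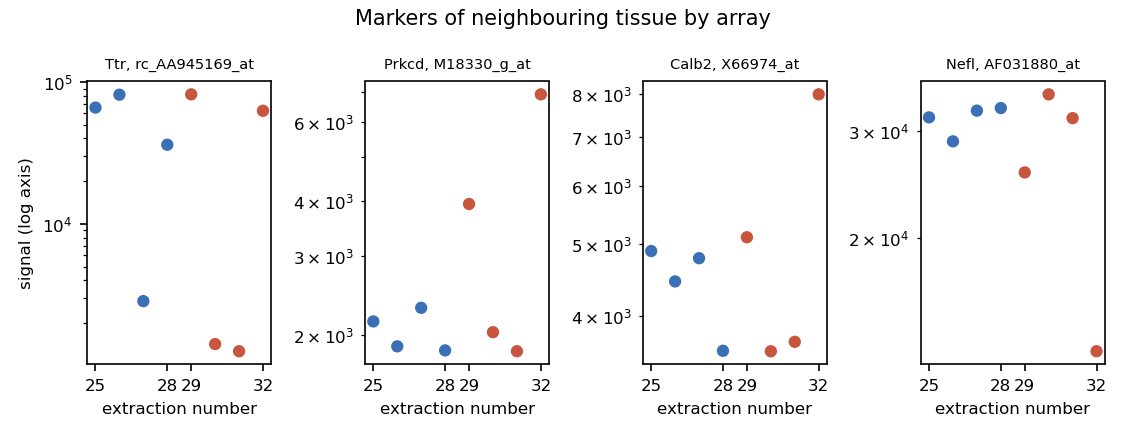
Signals of 4 marker probe sets on the 8 arrays (log axis), with arrays 25 to 28 in blue and arrays 29 to 32 in red. Ttr was low on arrays 27, 30 and 31, and array 32 had the highest Prkcd and Calb2 and the lowest Nefl.

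Only 3 probe sets differed between the blocks, and all 3 were higher on arrays 29 to 32: a Cebpd probe set, a probe set that names no gene, and a probe set whose annotation includes metallothionein 1. They are 0.044% of the 6812 tested (limma, adjusted p under 0.05), and 0 probe sets fell. At an unadjusted p under 0.05 limma found 299 probe sets (4.39%), of which 174 were higher (2.55%) and 125 lower (1.83%), where 341 are expected with no difference anywhere. Signals of all 4 arrays 29 to 32 lay above all 4 of the other block for 95 probe sets (1.39%) and below for 79 (1.16%). The median log2 difference over all tested probe sets was -0.004, with 3346 of them (49.1%) above 0. Counted with 1 probe set a gene, as in the gene lists, limma called 0 of 3948 genes, with 88 higher (2.23%) and 79 lower (2%) at an unadjusted p under 0.05.

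Cebpd gave the smallest p, in 1 of its 3 tested probe sets. The signal of rc_AI045030_s_at was 117, 109, 184 and 212 on arrays 25 to 28 and 770, 681, 474 and 496 on arrays 29 to 32. The blocks did not overlap, and 3 of the 4 lower arrays were at or under the floor of 185.8 to which low signals were raised before taking log2. It therefore passed the filter on low signals through the block where it was high, and the small spread of the lower block was set by the floor. Arrays 17 to 20 of ipsilateral hippocampus and arrays 9 to 12 of contralateral cortex lay wholly at the floor (SD 0). The SE pools the spread within all groups of the series, so such groups made it and the p smaller. The mean log2 signal rose from 7.59 ± 0.097 (SD, n = 4) to 9.21 ± 0.34 (n = 4), a difference of 1.62 (SE 0.216), or 3.08-fold on the floored scale (limma adjusted p = 1.99e-05). This fold is smaller than in the unfloored signals. The call was lost where only the 8 arrays were fitted (the same difference, limma adjusted p = 0.0698) and where the floor was set at the 40th percentile, which put all 4 arrays of the lower block at the floor and shortened the distance to the others (log2 difference 0.36, limma adjusted p = 0.691).

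The other Cebpd probe sets did not pass. M65149_at read 443, 832, 1320 and 975 on arrays 25 to 28 and 1345, 1578, 1195 and 1635 on arrays 29 to 32, a log2 difference of 0.78 (SE 0.284, limma adjusted p = 0.888). Array 31 lay inside the range of the lower block, and the other 3 lay above it. The third, rc_AA946292_at, read 1423, 1871, 1299 and 2468 against 1816, 1083, 1615 and 1917, which overlapped throughout (log2 difference -0.12, SE 0.339). Cebpb, the related factor C/EBP beta (X60769mRNA_at), read 870, 1216, 1966 and 1725 against 1626, 2461, 2143 and 1887, a log2 difference of 0.54 (SE 0.297, limma adjusted p = 1).

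The unnamed probe set M11794cds#2_f_at was among the brighter ones. Its signal was 5095, 4899, 6507 and 5393 on arrays 25 to 28 and 13275, 12776, 9817 and 13598 on arrays 29 to 32. The blocks were well apart, with array 31 the lowest of the higher block. The log2 difference was 1.17 (SE 0.209), or 2.25-fold (limma adjusted p = 0.00509). Without arrays 28 and 32 the difference was 1.12 and did not pass (limma adjusted p = 0.118, against 0.000205 at the lowest of 21 alternatives).

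The third probe set, rc_AI102562_at, is annotated to Mt1, Mt1f and Ttr together, so no single gene can be read from it. Its signal was 5555, 5927, 7936 and 8622 on arrays 25 to 28 and 17113, 16432, 11515 and 17129 on arrays 29 to 32, again with array 31 lowest of the higher block and no overlap. The log2 difference was 1.16 (SE 0.236), or 2.23-fold (limma adjusted p = 0.0353). Arrays 30 and 31, the lowest for Ttr, were above every array of the lower block here. With the Ttr signal as a covariate, an alternative chosen after seeing the data, the same 3 probe sets were called. The annotation of rc_AI102562_at includes Ttr, and the part of Ttr transcripts in its signal was not tested. The call was lost in 10 of 21 alternatives, against 2 for Cebpd and 1 for M11794cds#2_f_at. The difference stayed between 1.05 and 1.29, and the limma adjusted p ran from 0.0023 to 0.193. Another probe set with several genes, rc_AI176456_at (Mt1m and Mt2A), read 6269, 8678, 29586 and 33698 against 45009, 44092, 34942 and 50423. Arrays 27 and 28 were close to array 31 and far above arrays 25 and 26, and the log2 difference of 1.503 (SE 0.447) did not pass (limma adjusted p = 0.605). Mt3, the metallothionein of neurons and astrocytes (rc_AA924772_at), read 23035, 25543, 29532 and 28771 against 27804, 24135, 26663 and 30435, with a log2 difference of 0.03 (SE 0.113).

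Mt1 and Mt2A lie in the annotations of these probe sets, and their promoters are shown because metal response elements are a known feature of metallothionein genes. The runs are the 250 bases before each gene's start (RefSeq, GRCr8, minus strand, 5′ to 3′), Mt1 at chr19:10832976-10833225 and Mt2A at chr19:10838709-10838958. Capitals mark TGCACNC or TGCGCNC, the core of the element, in either orientation.
Mt1: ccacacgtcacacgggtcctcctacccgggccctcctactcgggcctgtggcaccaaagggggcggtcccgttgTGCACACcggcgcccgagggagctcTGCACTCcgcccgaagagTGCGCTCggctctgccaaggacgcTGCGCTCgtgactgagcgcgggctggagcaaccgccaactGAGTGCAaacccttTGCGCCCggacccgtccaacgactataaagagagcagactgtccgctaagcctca
Mt2A: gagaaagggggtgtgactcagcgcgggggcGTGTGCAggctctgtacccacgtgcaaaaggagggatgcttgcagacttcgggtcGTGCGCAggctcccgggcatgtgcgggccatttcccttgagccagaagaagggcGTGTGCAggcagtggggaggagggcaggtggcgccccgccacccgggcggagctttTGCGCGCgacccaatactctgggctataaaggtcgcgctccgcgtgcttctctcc
The Mt1 run held 6 matches, 5 of them on the strand shown, and the Mt2A run held 4, of which 1 was on the strand shown. Of 33469 rat promoters of this length, 20.6% held at least 1 match and 0.266% (89) at least 4. A match is a description of the letters, not a measured site.

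**Figure D2:**
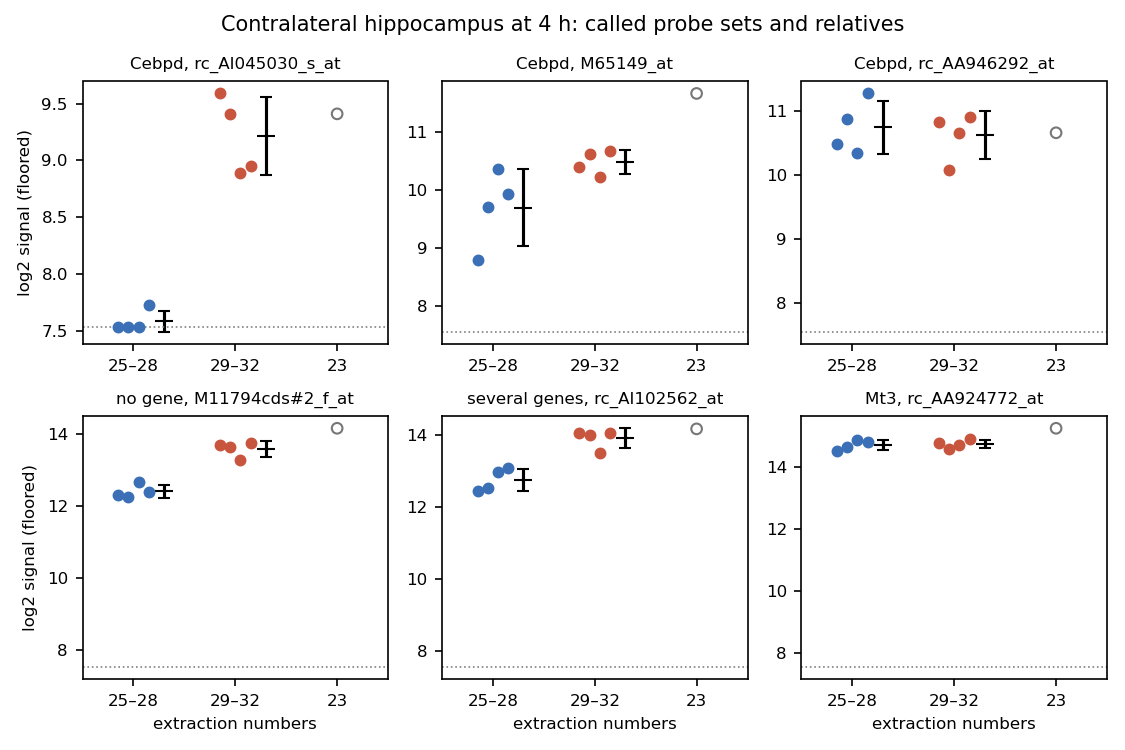
Log2 signal, raised to a floor (dotted line), of the 3 called probe sets and 3 related ones on arrays 25 to 28 (blue), arrays 29 to 32 (red) and array 23 (open circle), with the mean and SD of each block as bars. Only rc_AI045030_s_at, M11794cds#2_f_at and rc_AI102562_at passed, and array 23 lay above the higher block in M65149_at, M11794cds#2_f_at and rc_AI102562_at.

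Egr1, a zinc finger transcription factor induced by neuronal activity, had the smallest p among the lower probe sets that name 1 gene and were above the floor on all 4 arrays of the higher block, and it did not pass. The signal of rc_AI176662_s_at was 2612, 2562, 2386 and 2284 on arrays 25 to 28 and 1900, 1868, 1823 and 1439 on arrays 29 to 32. The blocks did not overlap, and array 32 was lowest. The log2 difference was -0.49 (SE 0.129, limma adjusted p = 0.423). M18416_at (-0.49, SE 0.15) and AF023087_s_at (-0.47, SE 0.143) also had every array 29 to 32 below every array 25 to 28, while U75398_s_at overlapped (-0.24, SE 0.195). All 4 probe sets read transcripts of 1 gene and are no replicates of each other.

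Arc, the activity-regulated cytoskeletal protein of dendrites (U19866_at), read 6569, 6184, 9685 and 8996 on arrays 25 to 28 and 5913, 4349, 4363 and 5748 on arrays 29 to 32. The gap between the blocks was small (6184 against 5913), and the log2 difference of -0.61 (SE 0.275) did not pass (limma adjusted p = 1). Nr4a2, a nuclear receptor of the same class of early genes (U01146_s_at), read 4923, 4313, 4581 and 3666 against 3402, 3288, 2821 and 2894 (log2 difference -0.49, SE 0.248). Fos, the classical activity marker (X06769cds_g_at), had a log2 difference of 0.01 (SE 0.213). Of the 17 tested immediate early transcription factors 0 passed (2 lower at an unadjusted p under 0.05 in limma), 5 had a difference above 0, and the median was -0.20, where the median over the 3948 tested genes was -0.009 and 47.8% were above 0. The 16 activity-regulated effectors had a median of -0.04, with 7 above 0 and 0 past the threshold. In limma 1 of them was higher and 1 lower at an unadjusted p under 0.05, against 2.23% and 2% of all tested genes.

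Glucocorticoid-responsive genes, the targets and partners of the corticosteroid receptors, had a median log2 difference of 0.217 over 12 tested genes, with 9 above 0 and 0 past the threshold. In limma 3 of the 12 were higher at an unadjusted p under 0.05, as were 2.23% of all tested genes. In 3 of the 12 every array 29 to 32 was above every array 25 to 28, which holds for 1.37% of all tested genes. Sgk1, a kinase induced by corticosteroids (L01624_at), was 1 of them, with signals of 1923, 2327, 2361 and 2422 against 3093, 3065, 3411 and 3070. Its log2 difference was 0.49 (SE 0.157, limma adjusted p = 0.676). Klf9, a Krüppel-like factor that corticosteroids induce, had 0.24 and Sult1a1, a sulfotransferase, 0.50. The receptors themselves, Nr3c1 (-0.20, SE 0.367) and Nr3c2 (-0.20, SE 0.198), had differences of the other sign. The mean of the list, relative to each gene's mean, ran from -0.349 to 0.119 on arrays 25 to 28 and from 0.026 to 0.192 on arrays 29 to 32, which overlapped. In this count Cebpd stood under rc_AA946292_at, its probe set with the highest mean, which had no difference.

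Among stress genes, Hmox1, the haem-degrading enzyme heme oxygenase 1 (rc_AI179610_at), read 1402, 1486, 1638 and 1694 on arrays 25 to 28 and 2382, 2486, 2039 and 3311 on arrays 29 to 32. All 4 lay above the lower block, with a log2 difference of 0.70 (SE 0.219, limma adjusted p = 0.676). Gclc, the catalytic subunit of glutathione synthesis (J05181_at), read 672, 485, 600 and 513 against 888, 714, 1097 and 716, with a log2 difference of 0.58 (SE 0.239, limma adjusted p = 0.975). Over the 23 tested metallothionein and antioxidant genes the median was 0.06, with 16 above 0 and 0 past the threshold. In limma 4 of the 23 were higher at an unadjusted p under 0.05, as were 2.23% of all tested genes. The glucose transporter Slc2a1, carried by vessel walls and astrocytes, differed between its probe sets. M13979_at read 1850, 2317, 2331 and 2139 against 3402, 3958, 3313 and 2869, with a log2 difference of 0.65 (SE 0.207, limma adjusted p = 0.676), while the blocks of S68135_s_at overlapped (0.26, SE 0.176). Heat shock proteins and chaperones had a median of -0.01 over 15 genes, and the 11 hypoxia-linked genes one of 0.09.

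**Figure D3:**
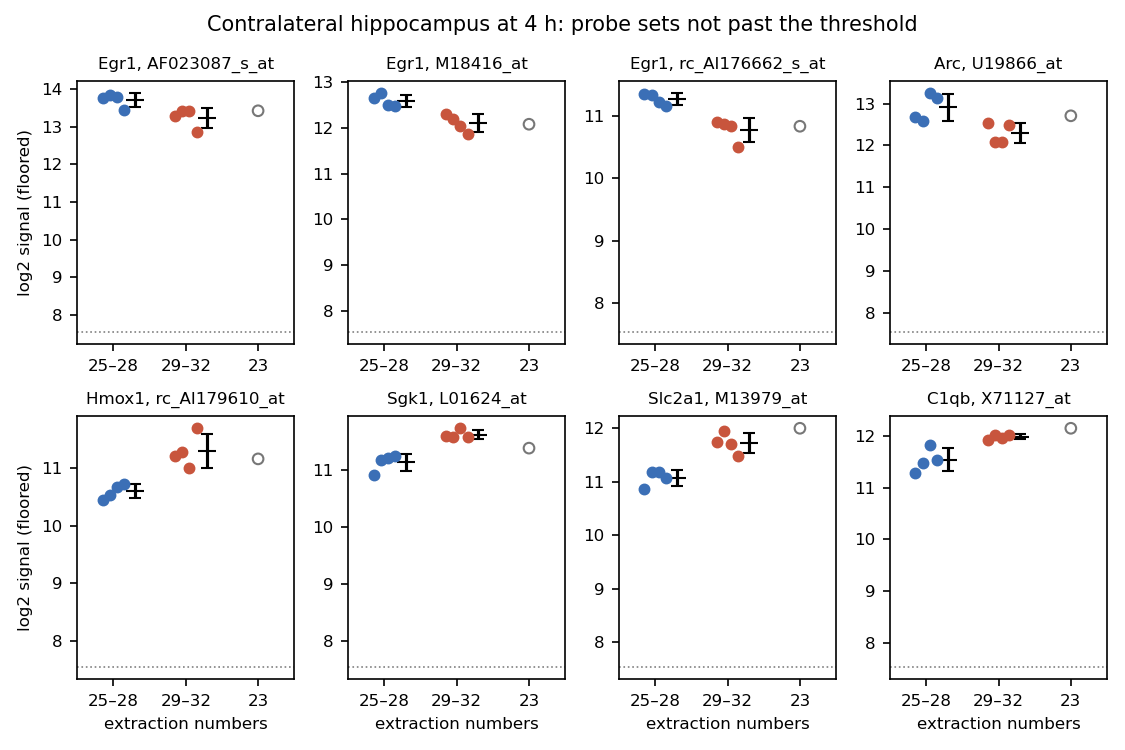
Log2 signal of 8 probe sets that did not pass the threshold, drawn as in the plot of the called probe sets. The 3 Egr1 probe sets drawn and Arc were lower on every array 29 to 32, and Hmox1, Sgk1, Slc2a1 (M13979_at) and C1qb were higher. A further Egr1 probe set, U75398_s_at, is not drawn and overlapped between the blocks.

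Of the glial and inflammatory genes on the lists, each counted under 1 probe set, 0 passed. Genes known to rise in reactive astrocytes had the highest median of the 30 lists, 0.311 over 16 tested genes. Of these 16, 13 were above 0, 0 passed, and 3 were higher at an unadjusted p under 0.05 in limma (2.23% of all tested genes). Their mean ran from -0.242 to -0.059 on arrays 25 to 28 and from -0.013 to 0.24 on arrays 29 to 32. Serpina3n, an acute-phase protease inhibitor of reactive astrocytes (D00753_at), read 758, 828, 567 and 555 against 996, 1093, 792 and 1529, where array 31 overlapped the lower block (log2 difference 0.68, SE 0.328). Lcn2, the iron-carrier protein lipocalin 2 (rc_AA946503_at), read 70, 116, 273 and 71 against 325, 235, 292 and 434. Most of its lower signals were under the floor, and its log2 difference was 0.62 (SE 0.269). Vim, the intermediate filament vimentin (X62952_at), had 0.35 (SE 0.188). Of the probe sets not used in the counts, Timp1 rc_AI169327_g_at, for a metalloproteinase inhibitor, had 0.90 (SE 0.408) with all of arrays 25 to 28 under the floor, and Cd14 AF087943_s_at, for a co-receptor of bacterial lipopolysaccharide, had 0.97 (SE 0.335, limma adjusted p = 0.769).

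C1qb, a chain of complement C1q made by microglia (X71127_at), read 2502, 2862, 3635 and 2970 on arrays 25 to 28 and 3875, 4153, 3973 and 4148 on arrays 29 to 32. The higher block was tight and did not overlap the lower one, and the log2 difference was 0.45 (SE 0.147, limma adjusted p = 0.676). A second set of probes, X71127_g_at, gave 0.46 (SE 0.179). C1qc, another chain, had -0.05, and the 13 tested microglia and macrophage markers had a median of 0.04 with 9 above 0. Csf1r was under the filter, and Itgam was above the floor on 4 of the 8 arrays. The 22 tested cytokine and inflammatory signalling genes had a median of 0.006, with 12 above 0, and Il1b, the cytokine interleukin 1 beta (M98820_at), read 406, 326, 834 and 520 against 494, 328, 441 and 815 (log2 difference 0.005). Blood leukocyte markers had a median of -0.21 over 7 tested genes, and S100a8 and S100a9, which define neutrophils, were under the filter.

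Lists of neurons and neighbouring tissue had 0 members past the threshold. Choroid plexus and meningeal markers had the lowest median, -0.211 over 16 genes with 3 above 0, and their mean ran from -0.405 to 0.593 on arrays 25 to 28 and from -0.77 to 0.389 on arrays 29 to 32, a wide overlap. Neuropeptides and their receptors had a median of -0.15 with 6 of 22 above 0. Within them Crh, the stress peptide corticotropin-releasing hormone (M54987_at), had a log2 difference of -0.69 (limma adjusted p = 0.82). Of the 12 oligodendrocyte and myelin markers 1 was above 0, with a median of only -0.04. Cholesterol synthesis genes showed small differences, mostly above 0, with 10 of 12 above 0 and a median of 0.146. Hippocampal pyramidal and granule cell genes (-0.08 over 16), glutamate receptors and transporters (0.01 over 23), GABA synthesis and receptors (0.03 over 20) and voltage-gated ion channels (0.04 over 35) had medians near that of all genes. So had the respiratory chain and ATP synthase (-0.04 over 22) and cytosolic ribosomal proteins (-0.02 over 34).

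**Figure D4:**
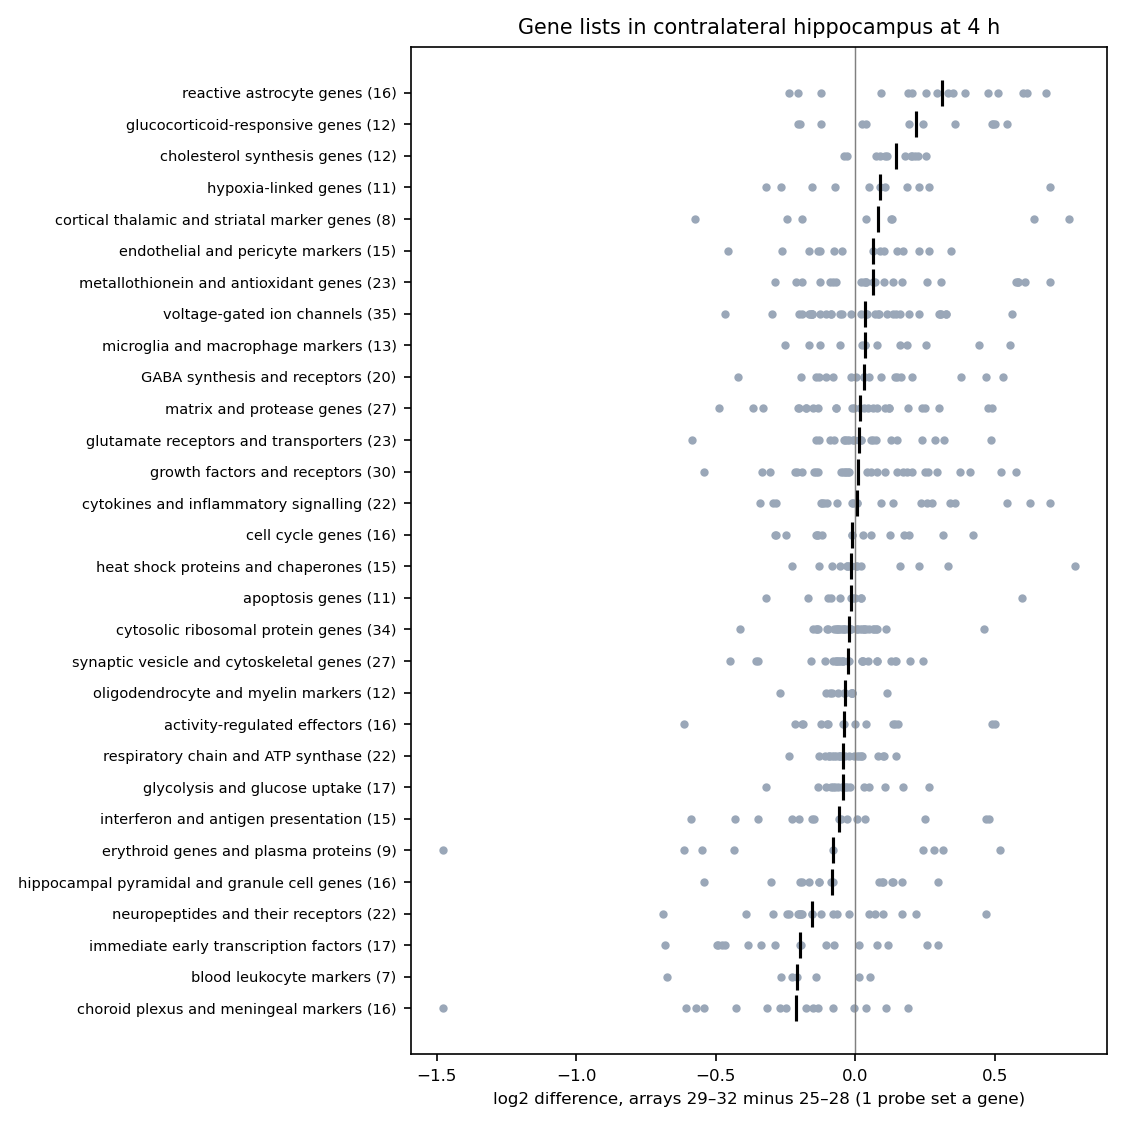
Log2 difference, arrays 29 to 32 minus arrays 25 to 28, of each tested gene in 30 gene lists (points, 1 probe set a gene, number of genes in brackets) with the list median as a bar. Medians ran from -0.211 for choroid plexus and meningeal markers to 0.311 for reactive astrocyte genes, and no point passed the threshold.

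Beyond Cebpd, the higher probe sets with the smallest p among those with 1 gene and above the floor on all of arrays 29 to 32 were Plcb4, Serpine2, Chm, Mapk9, Il2rb, Srsf5, Grifin and Rhob, with limma adjusted p from 0.159 to 0.605. Ahsg and Nrp2 had p in the same range (log2 differences 0.81 and 0.98) but were each under the floor on 1 array of the higher block. Plcb4, a phospholipase C of receptor signalling (L15556_at), read 584, 540, 665 and 649 against 932, 950, 867 and 1947. All of arrays 29 to 32 were above the lower block, but array 32, which also had the highest Prkcd, stood far above arrays 29, 30 and 31. The log2 difference was 0.86 (SE 0.199, limma adjusted p = 0.159), and it was 0.59 without array 32. The part of neighbouring tissue in it was not tested. Serpine2, the protease inhibitor nexin-1 (A03913cds_s_at), read 4052, 4103, 3384 and 3394 against 5384, 5396, 5480 and 4390 (log2 difference 0.47, SE 0.129). Mapk9, the stress kinase JNK2 (rc_AI231354_g_at), read 1618, 1211, 1453 and 1436 against 1994, 2171, 3083 and 2686 (0.78, SE 0.223). Il2rb, a chain of the interleukin 2 receptor (M55050_at), had the largest difference of the 8, 1.59 (SE 0.46), with 143 to 217 against 386 to 848. These blocks did not overlap either, although most signals of its lower block were near the floor.

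Among lower probe sets with 1 gene and above the floor on all of arrays 25 to 28, those with the smallest p after Egr1 were Gtdc1, Cckbr, Cybrd1, Gc, Cyp24a1, Oprm1 and Milr1, with limma adjusted p from 0.506 to 0.687. Abcb11, the bile salt export pump of liver (AF010597_s_at), had a smaller p than Egr1 but was under the floor on array 25, with 164, 272, 757 and 730 against 306, 65, 115 and 126 (log2 difference -0.96, SE 0.249). These blocks overlapped. Cckbr, the brain receptor for cholecystokinin (M99418_at), read 876, 1026, 630 and 922 against 580, 461, 385 and 583, a log2 difference of -0.78 (SE 0.229). Its other probe set, X79208_s_at, overlapped between the blocks (-0.29, SE 0.207). Cyp24a1, which breaks down vitamin D (Z28351exon_s_at), had the largest difference, -1.41 (SE 0.458), with signals of 1357, 1008, 794 and 828 against 320, 669, 194 and 438. Gc, the vitamin D binding protein of plasma (M12450_at), followed with -1.24 (SE 0.38), where arrays 25 to 28 ranged from 239 to 815 and arrays 29 to 32 lay just over the floor. Gtdc1, a glycosyltransferase-like gene (rc_AI639165_at), was tighter, with 1207, 973, 1183 and 1201 against 809, 828, 834 and 651 (-0.55, SE 0.155). The blocks did not overlap for 6 of these 7, all but Cybrd1, where 1.16% of all tested probe sets lay wholly below. The 7 were taken for their small p, so nothing is read from that count.

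The same contrast of later against earlier numbers was taken in ipsilateral hippocampus, on the side of the injury, with arrays 21, 22 and 24 (n = 3) minus arrays 17 to 20 (n = 4). It shares no array with the contralateral contrast, and the labels do not say whether arrays of both sides came from the same animals. The filter on low signals was counted on the 8 contralateral arrays for this and every other contrast. A probe set above the floor on too few of these 8 was therefore not tested in any tissue. Limma called 31 probe sets in ipsilateral hippocampus (0.455%, of which 29 rose and 2 fell). Among them were all 3 of the contralateral calls, which are 3 of 3 and 3 of 31. Cebpd rc_AI045030_s_at rose by 2.78 (SE 0.233), M11794cds#2_f_at by 2.13 (SE 0.225) and rc_AI102562_at by 1.70 (SE 0.255). For these probe sets the contralateral differences were 1.62, 1.17 and 1.16, and the tests of the difference between sides gave limma adjusted p of 0.379, 0.669 and 1. Of the 29 rises, 27 had a contralateral difference above 0 (49.1% of all tested), and in 10 of them the contralateral blocks did not overlap (1.39% of all tested). Their median was 1.62 ipsilaterally and 0.495 contralaterally, where the median of all tested probe sets was -0.004. The 10 without overlap include the 3 contralateral calls. Among the 10, Cebpd rc_AI045030_s_at and Timp1 rc_AI169327_g_at passed the filter on low signals only through arrays 29 to 32. Ccl2, Timp1, Cebpd and Nfkbia each stand in the 29 with more than 1 probe set, so these counts are a description and no test. Both ipsilateral falls, Slco1a4 and rc_AA866383_at, had contralateral differences above 0 (0.34 and 0.30). Across the 6812 probe sets the differences of both sides had a Pearson r of 0.1, a description over probe sets that share arrays.

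**Figure D5:**
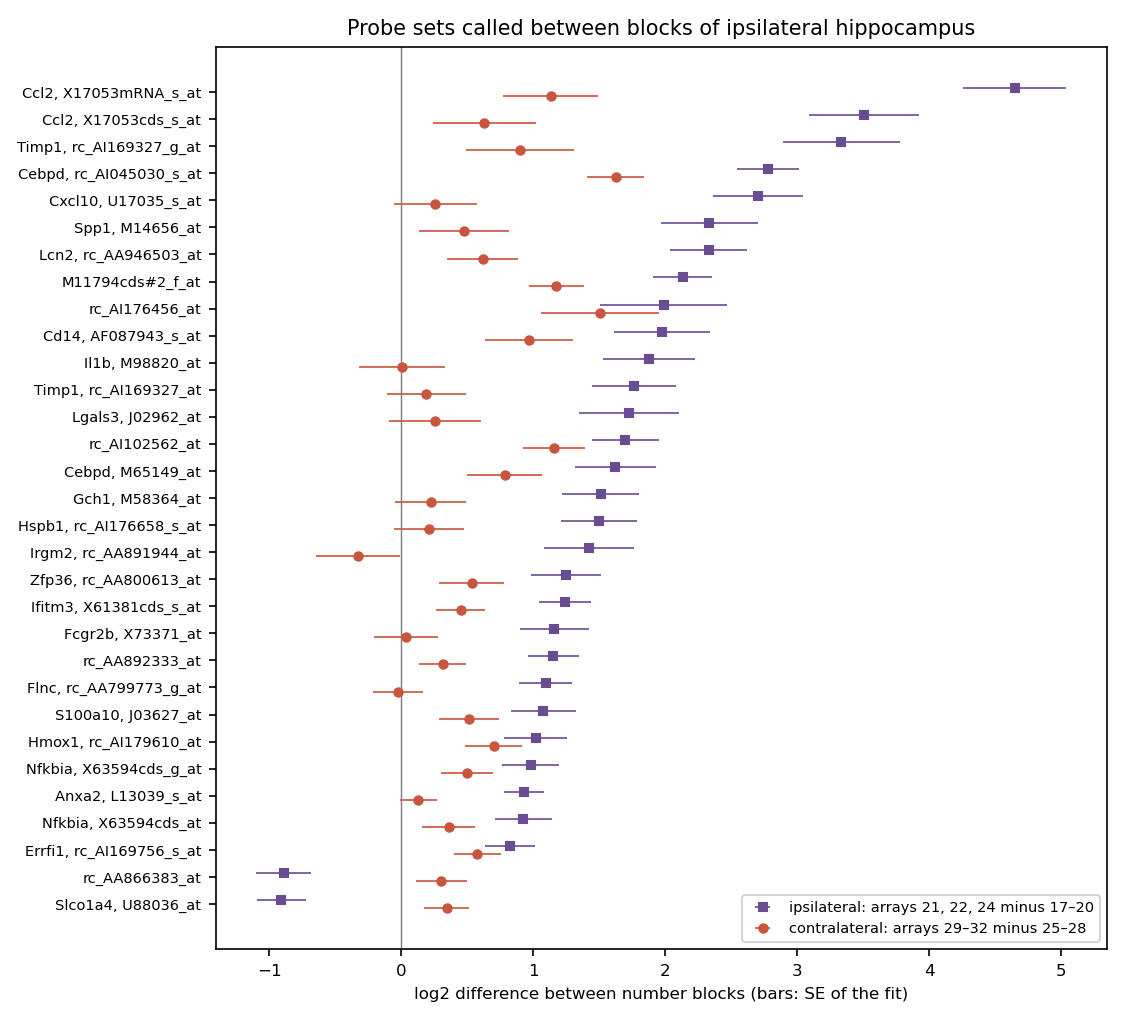
Log2 difference between number blocks for the 31 probe sets called in ipsilateral hippocampus, in ipsilateral (squares) and contralateral (circles) hippocampus, with the SE of the fit as bars. Of the 29 that rose ipsilaterally, 27 were above 0 contralaterally, and the difference between sides passed for both Ccl2 probe sets, Cxcl10 and Slco1a4.

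The difference between sides passed for 4 probe sets (0.0587%). Ccl2, the chemokine that recruits monocytes, had a smaller contralateral block difference in both of its probe sets. X17053mRNA_s_at read 278, 311, 325 and 64 on arrays 25 to 28 and 594, 501, 580 and 696 on arrays 29 to 32, without overlap. This log2 difference of 1.13 (SE 0.362, limma adjusted p = 0.676) stood against 4.65 (SE 0.391) ipsilaterally, where signals were 23 to 220 on arrays 17 to 20 and 2002 to 8786 on arrays 21, 22 and 24. The contrast of the contrasts was -3.52 (SE 0.533, limma adjusted p = 0.000425), and for X17053cds_s_at it was -2.88 (limma adjusted p = 0.0208). The call on X17053cds_s_at was lost without any 1 of arrays 19, 20, 21, 24, 25, 28, 29 and 30 (limma adjusted p 0.0524 to 0.122). Cxcl10, an interferon-induced chemokine (U17035_s_at), read 333, 239, 254 and 247 against 224, 281, 263 and 614. The blocks overlapped (0.26, SE 0.313), against 2.70 (SE 0.338) ipsilaterally, and the difference was -2.44 (SE 0.46, limma adjusted p = 0.0141). That call was lost without array 20 (limma adjusted p = 0.0539) or array 21 (0.108), with the floor at the 10th percentile (0.236) and with only the 16 hippocampal arrays fitted (0.0913).

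Slco1a4, an organic anion transporter of brain vessels and choroid plexus (U88036_at), differed the other way. It read 2243, 2292, 1799 and 2052 against 2244, 2510, 2062 and 4238 contralaterally, a difference of 0.34 (SE 0.171) that array 32 dominated. Ipsilaterally it fell by 0.91 (SE 0.185). The difference between sides, 1.25 (SE 0.252, limma adjusted p = 0.0208), was 1.03 without array 32 and then did not pass (limma adjusted p = 0.0653). It was also lost without any 1 of arrays 18, 20, 21, 24, 27 and 28 (limma adjusted p 0.0524 to 0.122), and with only the 16 hippocampal arrays fitted (0.173). Il1b and Lgals3 rose ipsilaterally and had contralateral differences of 0.005 and 0.25, but their difference between sides did not pass (limma adjusted p = 0.231 and 0.777).

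In contralateral cortex at 4 h, arrays 13 to 16 minus arrays 9 to 12 gave 9 calls (0.132%; 3 rose, 6 fell), again on other arrays than the hippocampal ones. M11794cds#2_f_at rose by 1.26 (SE 0.209, limma adjusted p = 0.00238) and rc_AI102562_at by 1.38 (SE 0.236, limma adjusted p = 0.00238), so 2 of the 3 hippocampal calls were among the 9. Cebpd rc_AI045030_s_at had 0.32 (SE 0.216, limma adjusted p = 0.854) there, with signals of 56 to 149 on arrays 9 to 12 and 155 to 452 on arrays 13 to 16. The test of its difference between the regions gave 1.30 (SE 0.305, limma adjusted p = 0.377), which did not pass. Cebpd M65149_at had 1.23 in cortex and 0.78 in hippocampus. Among the cortical falls were Egr1 AF023087_s_at (-0.75, SE 0.143) and rc_AI176662_s_at (-0.60, SE 0.129), with hippocampal differences of -0.47 and -0.49, and the nuclear receptor Nr4a3 (-1.04 against -0.34). The third cortical rise, Mfge8, which encodes a secreted protein that marks dying cells for uptake (rc_AI008638_at), was 0.96 in cortex and -0.29 in hippocampus. The 6 cortical falls, 2 of them of Egr1, had hippocampal differences from -0.49 to -0.007 (Cpq) with a median of -0.32, where 49.1% of all tested probe sets were above 0. Without array 11 or array 13, 2 cortical calls remained of the 9. Limma called 0 probe sets for the difference between contralateral hippocampus and cortex, with 275 at an unadjusted p under 0.05 (129 higher, 146 lower) and a smallest adjusted p of 0.295.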

How the data were processed

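The deposited values were used as given: an intensity (signal) per probe set on a linear scale, whose summary method and scaling target neither the labels nor the file headers name. The 2%-trimmed means of the 47 arrays lay between 2502.9 and 2503.6, within the 5% tolerance set for treating the table as scaled. Signals under the 25th percentile of all values (185.8) were set to it before the log2 transform. Probe sets above this floor on at least 4 of the 8 arrays compared were tested (6812).

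One linear model of 13 group means (12 number blocks and array 23 alone) was fitted to all 47 arrays with limma 3.58.1 in R 4.3.3 (eBayes with an intensity trend, two-sided, 34 residual degrees of freedom), with Benjamini-Hochberg adjustment over the 6812 at 0.05. The procedure was tested on simulated data. Gene names are those of the array annotation, brought to RefSeq GRCr8 by gene ID: 5615 tested probe sets name 1 gene, and 5598 matched the reference. In list counts a gene stands under its brightest probe set on the 8 arrays, and some genes are in more than 1 of the 30 lists. The rule for named genes took those past the threshold and, where fewer than 5 passed in a direction, the smallest p up to 8 that were above the floor on all 4 arrays of the higher block. For differences from other tissue it took the 5 smallest p past the threshold. The called probe sets without a single gene, and genes named inside lists or beside a named relative, were added after their values were seen. The members and lists were chosen with earlier results of these data known. The number of arrays limits the precision. Alternatives changed the scaling, floor, log scale, filter, arrays fitted, variance model, weights and covariates, and left out single arrays.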

Additional observations from a re-analysis of the deposited data

Results flagged for a closer look

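Of 116 block values of named or called probe sets, list means and array quality measures, 9 had an array far from the other 3 of its block, where chance gives about 1 in 20. On the log2 scale array 28 stood above the rest for Cebpd rc_AI045030_s_at (7.731, with the other 3 at the floor of 7.537), and array 27 above the rest for Grifin AF082160_at (8.108, again with the others at the floor). For both, any signal above the floor stands apart from the 3 values set to it: the unfloored signals on arrays 25 to 28 were 117, 109, 184 and 212 for Cebpd and 155, 129, 276 and 120 for Grifin. Array 32 stood above the rest for Plcb4 L15556_at (10.93) and below them for Serpine2 A03913cds_s_at (12.1), Egr1 rc_AI176662_s_at (10.49) and Gtdc1 rc_AI639165_at (9.345). Array 26 was below the rest for Gtdc1 (9.927), array 31 for rc_AI102562_at (13.49), and array 28 for the mean of the GABA synthesis and receptor genes (-0.1906).

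The contralateral block difference differed from the ipsilateral one, by the limma test of that difference, for Ccl2 X17053mRNA_s_at (-3.52), Ccl2 X17053cds_s_at (-2.88), Cxcl10 U17035_s_at (-2.44) and Slco1a4 U88036_at (1.25).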

How the results depend on the processing

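The count of 3 calls between the contralateral hippocampal blocks ran from 2 to 4 over the 21 alternatives, and from 2 to 4 when single arrays were left out. Without array 25 or array 26 it held 1 lower probe set, and elsewhere all calls were higher. The covariate Ttr, the fit without arrays 28 and 32, and leaving out arrays of the other tissues were chosen after seeing the data. Array weights gave 76 calls in ipsilateral hippocampus, 4 in contralateral cortex, 8 for the difference between sides and 1 for the difference between regions. The difference between sides gave 11 calls with no filter and 12 with the filter on 7 of all 47 arrays. Leaving out single arrays gave 17 (without array 24) to 32 calls in ipsilateral hippocampus, 2 to 15 in contralateral cortex (15 without array 12, 3 without array 9, 5 without array 15), 1 to 6 for the difference between sides (1 without array 20 or 21, 2 without array 24 or 28) and 0 to 2 for that between regions (2 without array 12, 1 without array 15). With array weights the median of the cortical, thalamic and striatal markers was -0.08 in place of 0.08. The cause of these changes was not tested. No difference changed sign in a called probe set. No paired analysis was possible because each extraction number occurs once. Signals near the floor, as for Cebpd on arrays 25 to 28, have only a bound, and their folds depend on it. With the floor at the 40th percentile, Ccl2 X17053cds_s_at, Cxcl10, Chm, Il2rb, Grifin, Cybrd1, Gc, Oprm1 and Milr1 were under the filter and gave no value.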

Other observations

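Array 23, labelled contralateral hippocampus at 4 h but numbered among the ipsilateral arrays, was in neither block. Its signal was 680 for Cebpd rc_AI045030_s_at, 18175 for M11794cds#2_f_at and 18388 for rc_AI102562_at. For Ccl2 it read 2959 in X17053mRNA_s_at and 2708 in X17053cds_s_at, above the highest of the 8 arrays (696 and 730). Array 23 was also above all 8 for Cxcl10 (1560), Lcn2 (1019) and Timp1 rc_AI169327_g_at (1369, where arrays 29 to 32 read 233, 341, 346 and 525 and arrays 25 to 28 were under the floor). Ipsilateral arrays 21, 22 and 24 read 2002 to 8786 and 2128 to 5908 for Ccl2, 1100 to 1919 for Cxcl10 and 979 to 1275 for Lcn2. Array 23 lay within these ranges and that of rc_AI102562_at (14631 to 28325). It lay under those of Timp1 rc_AI169327_g_at (1456 to 2706), Cebpd rc_AI045030_s_at (960 to 1484) and M11794cds#2_f_at (18246 to 26170). Whether the label holds was not tested. The correlation of array 23 with the 8 arrays was 0.945 to 0.952, and 19.6% of its signals were at the floor, against 21.3% to 24.8% on the 8.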
